A study of Homo sapiens with 30 samples.

Results

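HEK28, a derivative of the human embryonic kidney line HEK293, secretes coagulation factor VIII, the product of F8, and its messenger RNA was compared here with that of the parental HEK line. The comparison uses 6 of the 30 samples of the series: 3 HEK28 libraries, genotype label WT-HEK28, and 3 parental libraries, genotype label WT-HEKpar, all from untreated cultures. The cell line field of the parental samples also reads HEK28, so samples were grouped by title and genotype. The other 24 libraries come from 8 knockout lines made in HEK28 by CRISPR, 3 libraries each, aimed at ATG7, CALR, CANX, GABARAP, GABARAPL1, GABARAPL2, LMAN1 or MCFD2. They are given beside the members as further libraries of HEK28 origin, and they enter the model that gives the p-values. RNA was read by 3' RNA-seq, which sequences a short stretch near the 3' end of each transcript. The labels do not say how F8 was introduced, which promoter drives it, whether HEK28 or the parental line is 1 clone, or whether replicates are separate cultures. The p-values therefore measure only the spread between samples of a group, shared over all 10 groups of the series, knockout groups included. F8 itself, selection, clonal origin and time in culture cannot be told apart as sources of a difference between the lines.

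Factor VIII is a large plasma glycoprotein that serves as a cofactor in blood clotting. After translation into the endoplasmic reticulum it is glycosylated, folded with the help of lectin and other chaperones, and loaded into COPII-coated vesicles by the cargo receptor made of LMAN1 and MCFD2. A line that secretes it can be compared with its parent for the genes of this route, for the stress responses tied to protein folding, and for the supply of energy and of ribosomes that a secreting cell draws on. HEK293 cells express both kidney and neuronal genes.

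The values are log2 levels per unit of transcript length and of library size, with an unknown constant, so a gene's level may be compared between libraries. Levels of different genes are not compared, since reads near the 3' end need not grow with transcript length. The read totals that the values imply were 150676, 412718 and 303300 in HEK28 replicates 1 to 3 and 157537, 327969 and 608485 in parental replicates 1 to 3, against 244632 to 3933098 in the knockout libraries. HEK28 replicate 3 stood apart from replicates 1 and 2. Over genes with enough reads, the chi-square per degree of freedom was 1.82 between replicates 1 and 2, 6.39 between 1 and 3 and 10.1 between 2 and 3, and between parental libraries it was 1.57 to 1.84. Replicates 1 and 2 lacked transcripts: of the genes for which the knockout libraries predict at least 10 reads, 2.73% and 3.48% had under 10% of the predicted reads. The share was 0.117% in replicate 3, 0.845% to 1.01% in the parental libraries, and 0.0159% to 1.07% (median 0.161%) in the knockout libraries. For this reason a list's count is given with the number of its genes in which all 3 HEK28 libraries agree, and genes that were called without agreeing are counted but not named, apart from those of the factor VIII exit route.

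In the model over all genes (limma, Benjamini-Hochberg adjusted p under 0.05), 3607 of 11341 tested genes differed between HEK28 and the parental line (31.8%), 1892 higher in HEK28 (16.7%) and 1715 lower (15.1%). The median log2 difference of all tested genes was -0.07. In 3416 genes (30.1%) the 3 HEK28 libraries lay entirely above or below the 3 parental ones. A gene was taken to agree if it passed the test, its groups did not overlap and its HEK28 values lay within 2 log2 units. Each library of the higher group also needed at least 10 reads, where reads were recovered. HEK28 replicate 3 alone against the parental libraries had to pass in the same direction as well. All of this held for 937 genes (8.26%), 616 higher in HEK28 (5.43%) and 321 lower (2.83%), 728 of them by 2-fold or more. For 27 of the 937 the reads were not recovered, so the read condition was not checked. Replicate 3 alone gave 1508 higher (13.3%) and 976 lower genes (8.61%). With voom weights, which let shallow libraries count for less, 934 genes were higher (8.29%) and 1445 lower (12.8%). The median of all genes moved to -0.24. Of the 937 agreeing genes 824 passed with these weights, which could not be run on the 27 without recovered reads. A fit of the 6 samples alone gave 318 higher (2.8%) and 232 lower genes (2.05%), and 360 of the agreeing genes passed. In the model over all libraries 37.3% of genes differed between the parental line and the mean of the 8 knockout groups, which shares the parental libraries, and against that mean 7.27% of genes were higher and 17.4% lower in HEK28.

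F8 (ENSG00000185010, chromosome X, 154835788 to 155026940, GRCh38) gave log2 levels of 8.35, 8.01 and 8.49 in the HEK28 libraries and of 0.24, -0.73 and 0.76 in the parental ones. Every HEK28 library lay far above every parental library, as their labels require. The log2 difference was 8.20 ± 0.22 (SE, n = 3 against 3; limma adjusted p = 1.94e-18), and the 24 knockout libraries held 8.75 to 9.93. Scaled to the read totals the ratio was 374, with a 95% counting interval of 103 to 3092 that rests on 2 parental reads. In bulk RNA, fewer cells with a transcript and less of it per cell cannot be told apart. HEK28 stood below the mean of the knockout groups by a log2 difference of -0.91 (adjusted p = 0.000677).

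Of the 14 tested genes of the folding and exit route, F8 included, 9 did not pass the test. LMAN1, the lectin of the cargo receptor, gave log2 levels of 6.89, 6.73 and 7.99 in HEK28 and of 7.52, 7.30 and 7.78 in the parental line, so the groups overlapped (log2 difference -0.32, adjusted p = 0.354). MCFD2, its soluble partner, gave 7.16, 8.24 and 8.97 against 7.59, 8.02 and 7.54 (log2 difference 0.41, adjusted p = 0.282), from 3 to 22 reads a library. With replicate 3 alone the MCFD2 difference was 1.25 and passed (adjusted p = 0.00127), so its call depends on which HEK28 libraries are used. SURF4, another cargo receptor of the endoplasmic reticulum, differed by 0.29 and did not pass (adjusted p = 0.396).

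The chaperones that factor VIII meets moved little and in both directions. CANX, which encodes the membrane lectin chaperone calnexin, was higher by a log2 difference of 0.52 (adjusted p = 0.00723), with levels of 9.72, 10.02 and 9.84 in HEK28 against 9.02, 9.54 and 9.47. HSP90B1, which encodes GRP94, was higher by 0.85 (adjusted p = 0.000741). HSPA5, which encodes the chaperone BiP that binds factor VIII, was lower by a log2 difference of -0.50 (adjusted p = 0.00368), with levels of 7.25, 7.54 and 7.51 against 7.90, 7.91 and 7.99. The groups of all 3 genes were separate, but none of them passed with replicate 3 alone (adjusted p = 0.0673, 0.0806 and 0.0579), so they fail the agreement rule. CALR (0.53, adjusted p = 0.133), UGGT1 (0.20, adjusted p = 0.546) and PDIA3 (0.11, adjusted p = 0.688), which encode calreticulin, the folding sensor and the oxidoreductase of the same cycle, did not pass. SEC24A, SEC24B and FURIN, the protease that cuts the factor VIII precursor, did not pass either. SEC24D passed with at most 11 reads a library and overlapping groups, so no direction is read from it.

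Lists of the wider secretory pathway differed in how many members agreed, beside 8.26% of all tested genes. Of 25 tested chaperones and oxidative folding enzymes of the endoplasmic reticulum, 3 were higher and 5 lower, near the shares over all genes, and 1 of them agreed. That gene was ERO1B, an oxidase that recharges disulfide exchange, with log2 levels of 3.23, 2.57 and 1.96 against 3.96, 3.73 and 3.98 (difference -1.30, adjusted p = 0.0117). Of 26 genes of degradation at the endoplasmic reticulum, 2 were higher and 2 lower (7.69% each), below the shares over all genes. UBE2G2, a ubiquitin-conjugating enzyme of that route, was the agreeing gene (1.26, adjusted p = 0.00015).

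Of 31 COPII and COPI genes 9 were higher (29%) and 3 lower (9.68%), against 16.7% and 15.1% of all tested genes. Of these 4 agreed, all of them higher. KDELR1, the receptor that returns escaped chaperones to the endoplasmic reticulum, gave log2 levels of 8.98, 9.43 and 9.21 in HEK28 against 7.61, 7.49 and 8.12 (difference 1.47 ± 0.15 SE, adjusted p = 6.96e-08). The lowest HEK28 library was thus above the highest parental one, as the agreement rule requires. COPB2 (1.32, adjusted p = 1.11e-05) and COPA (1.14, adjusted p = 0.000351), subunits of the COPI coat, and TMED3, a cargo protein of the same vesicles (0.98, adjusted p = 0.00228), were higher too. Replicate 3 alone gave 7 higher members and 1 lower, and without replicate 3 the counts were 9 and 9.

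Of 40 genes of the translocon, signal recognition particle and N-glycosylation, 4 were higher (10%) and 8 lower (20%). The shares over all tested genes were 16.7% and 15.1%, and the agreeing genes split. SRP68, a protein of the signal recognition particle, gave log2 levels of 3.53, 2.92 and 3.16 against 5.33, 5.01 and 5.16 (difference -1.96, adjusted p = 2.27e-06). SEC62, a translocon subunit, was lower by -1.26 (adjusted p = 0.000301), and MLEC, which encodes the glycan-binding protein malectin, by -0.58 (adjusted p = 0.024). In the other direction, MAGT1, an oligosaccharyltransferase subunit, was higher by 1.04 (adjusted p = 8.81e-05) and SRP14, of the same particle as SRP68, by 0.68 (adjusted p = 0.00108). Of 33 autophagy genes 5 were lower, a share of 15.2% against 15.1% of all tested genes, and without replicate 3 the list had 6 higher and 7 lower. OPTN, an autophagy receptor, agreed, with log2 levels of 5.73, 5.99 and 4.85 against 9.05, 8.62 and 8.80 (difference -3.30, adjusted p = 1.25e-07), from 17 to 51 parental and 1 to 4 HEK28 reads. In the knockout libraries OPTN ran from 5.14 to 9.28, so some lay at the parental level.

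Targets of ATF4, the transcription factor of the integrated stress response, were lower more often than higher. Of 34 tested targets 14 were lower and 3 higher, with a median log2 difference of -0.53 against -0.07 for all genes. By library the median was -0.70, -0.80 and -0.22 in HEK28 replicates 1 to 3 and -0.08 to 0.09 in the parental libraries. The agreeing lower genes were ATF3, a stress-induced repressor (levels 2.08, 2.34 and 2.30 against 5.15, 5.19 and 4.82; difference -2.82, adjusted p = 2.88e-07), SLC3A2, the heavy chain of amino acid transporters (-1.95, adjusted p = 5.42e-06), NUPR1 (-1.71, adjusted p = 0.000298), SESN2, a leucine sensor (-0.74, adjusted p = 0.00175), and SARS, seryl-tRNA synthetase (-0.55). PSPH, the last enzyme of serine synthesis, was higher (1.35, adjusted p = 0.0011). Amino acid synthesis genes of the list such as ASNS, PSAT1 and PHGDH did not pass. With replicate 3 alone 9 targets were lower and 3 higher, and 9 were lower when HEK28 replicate 1 or parental replicate 2 was left out.

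Among the lists with at least 12 tested members, glycolysis had the largest share of higher genes. Of 20 tested members 13 were higher and 5 lower, the median log2 difference was 1.24, and 11 agreed, all higher, by 0.81 to 2.56. The list median by library was 1.32, 1.34 and 1.33 in HEK28 replicates 1 to 3, and 13 members were again higher with replicate 3 alone. The knockout libraries had list medians of 0.65 to 1.48.

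The agreeing genes cover the pathway from its first committed step to its last. PFKL and PFKP, subunits of phosphofructokinase, were higher by 2.41 and 2.15 (adjusted p = 3e-07 and 1.29e-06). ALDOA, aldolase, gave log2 levels of 8.21, 8.44 and 7.17 in HEK28 against 5.20, 5.30 and 5.95 (difference 2.46 ± 0.25 SE, adjusted p = 9.59e-08). PKM, pyruvate kinase, gave 7.32, 7.58 and 6.14 against 4.26, 4.43 and 4.68 (2.56 ± 0.26 SE, adjusted p = 8.64e-08). LDHA, the lactate dehydrogenase subunit, gave 7.24, 7.32 and 7.06 against 4.62, 4.58 and 5.39 (2.35 ± 0.21 SE, adjusted p = 1.3e-08). In each of these 3 genes the lowest HEK28 library was above the highest parental one, as the agreement rule requires. Replicate 3 was the lowest of the HEK28 libraries. GPI, TPI1, PGK1, PGAM1, ENO1 and LDHB completed the agreeing genes, and GAPDH did not pass. None of the 5 lower members met the agreement rule.

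The tricarboxylic acid cycle differed less. Of 24 genes 4 were higher and 3 lower, close to the background shares. PDHA1, the E1 alpha subunit of pyruvate dehydrogenase, was higher with levels of 10.33, 10.20 and 9.85 against 8.75, 8.58 and 8.88 (difference 1.39, adjusted p = 5.83e-06). SUCLG1, a subunit of succinyl-CoA ligase, was higher by 1.47 (adjusted p = 2.09e-05), and OGDH, of the oxoglutarate dehydrogenase complex, was lower by -1.16 (adjusted p = 0.0239). Citrate synthase (CS), fumarase (FH) and both malate dehydrogenases (MDH1 and MDH2) did not pass.

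Nuclear genes of the respiratory chain were higher more often than lower. Of 38 complex I subunits 18 were higher, 2 lower and 9 agreed, all higher, with a median log2 difference of 0.57. NDUFS8, which carries iron-sulfur clusters, gave log2 levels of 4.65, 4.54 and 4.00 against 2.30, 2.29 and 2.69 (1.97 ± 0.23 SE, adjusted p = 5.95e-07). NDUFA11, NDUFB4, NDUFS6 and NDUFA9 were higher by 1.90, 1.49, 1.46 and 1.43 (adjusted p = 1.64e-06, 1.53e-05, 1.29e-06 and 5.7e-06). Of 21 genes of complexes III and IV, 8 were higher and 4 lower, and 7 agreed. COX7C, a cytochrome c oxidase subunit, gave 9.63, 9.62 and 9.65 against 7.88, 8.31 and 8.06 (1.55 ± 0.14 SE, adjusted p = 1.2e-08). COX4I1 and COX5B of the same enzyme differed by 1.58 and 1.04, and UQCR11 and UQCRB of complex III by 2.20 and 1.25. Of 16 ATP synthase genes 5 were higher. ATP5G1, which encodes a copy of the rotor subunit c, gave 11.65, 12.19 and 11.60 against 9.53, 9.77 and 9.63 (2.18 ± 0.14 SE, adjusted p = 7.85e-11).

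These lists moved with the HEK28 library used. With replicate 3 alone 19, 12 and 13 members of complex I, complexes III and IV and ATP synthase were higher. Without replicate 3 the counts were 16, 6 and 7 higher and 8, 7 and 4 lower. The list median of ATP synthase was 0.17, 0.06 and 1.23 in HEK28 replicates 1 to 3. Gene length moved with the result as well. Of the shortest 2013 protein-coding genes 23.1% were higher and the median log2 difference was 0.12 (0.48 with replicate 3 alone), and of the longest 2013 genes 12.9% were higher and the median was -0.15 (-0.12 with replicate 3 alone). Respiratory and ribosomal genes are short, and the part of length in their differences was not tested.

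Ribosomal protein genes changed unevenly. Of 50 genes of the large subunit 18 were higher and 6 lower, and of 34 of the small subunit 17 were higher and 3 lower. In each list 15 agreed, all higher, by 0.52 to 2.65 and by 0.44 to 2.27. RPL12, of the stalk base, gave log2 levels of 11.52, 11.51 and 10.90 against 8.35, 8.77 and 8.88 (2.65 ± 0.15 SE, adjusted p = 4.77e-12). RPL3, which lies near the peptidyl transferase centre, gave 8.77, 8.90 and 8.87 against 6.61, 6.85 and 6.72 (2.12 ± 0.12 SE, adjusted p = 9.01e-12). Replicate 3 lay with replicates 1 and 2 in RPL3 and below them in RPL12. In both genes every HEK28 library was above the parental ones, as the agreement rule requires. RPL27A, RPL14 and RPL28 differed by 1.98, 1.70 and 1.67.

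In the small subunit RPSA gave log2 levels of 10.00, 10.22 and 9.94 against 8.70, 8.46 and 8.62 (1.46 ± 0.13 SE, adjusted p = 9.33e-09). RPS20, RPS9 and RPS4X differed by 1.49, 1.55 and 1.42, and RPS27L, a paralog of RPS27 that p53 induces, by 2.27. None of the lower members of either list met the agreement rule. The rule fixed part of this, since it requires a call in the same direction with replicate 3 alone. The list medians in replicates 1 to 3 were -0.10, -0.06 and 0.79 for the large subunit and 0.19, 0.29 and 0.89 for the small. With voom weights the higher counts were 11 and 9, and with replicate 3 alone 31 and 25. Without replicate 3 the counts were 18 and 16 higher and 16 and 7 lower. Ribosomal protein genes have many processed pseudogenes, and reads shared with them cannot be told apart here.

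Translation factors followed the same uneven pattern. Of 38 tested, 14 were higher and 6 lower, and of the 11 that agreed 10 were higher. EIF3K, EIF3C and EIF3E, subunits of the initiation factor eIF3, were higher by 2.43, 1.81 and 1.69 (adjusted p = 2.03e-07, 1.85e-07 and 7.94e-06). PABPC1, the cytoplasmic poly(A)-binding protein, gave log2 levels of 6.74, 6.53 and 6.81 against 4.97, 5.19 and 5.45 (1.49, adjusted p = 6.23e-07). The agreeing lower gene was EIF1, which guards start codon choice, with 5.61, 5.47 and 6.24 against 7.60, 7.64 and 7.66 (-1.86 ± 0.19 SE, adjusted p = 8.64e-08). Of 23 snoRNP and nucleolar genes 8 were higher (34.8%) and 4 lower (17.4%), against 16.7% and 15.1% of all tested genes. FBL, SNU13 and NPM1 agreed, higher by 1.38, 0.93 and 1.07. None of the 4 lower members agreed.

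Genes of mitosis were higher more often than lower, and those of DNA replication stayed near the shares over all genes. Of 40 G2 phase and mitosis genes 18 were higher, 3 lower and 12 agreed, all higher. CCNB1, cyclin B1, gave log2 levels of 4.81, 4.34 and 4.25 against 2.31, 2.37 and 2.83 (1.96 ± 0.21 SE, adjusted p = 2.08e-07). BUB1, a spindle checkpoint kinase, gave 2.37, 2.38 and 2.31 against 0.56, -0.41 and 0.04 (2.29, adjusted p = 4.32e-06), from 3 to 8 parental reads. HMMR, a microtubule-associated protein of the spindle, CDC20, an activator of the anaphase-promoting complex, and CKS2 were higher by 2.55, 1.56 and 1.51. Of 38 replication genes 6 were higher (15.8%) and 8 lower (21.1%), near the 16.7% and 15.1% of all tested genes. CDT1, a licensing factor, was the gene that agreed, lower by -1.01 (adjusted p = 0.000368).

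Histone genes, whose main transcripts end without a poly(A) tail, were higher more often than lower. Of 62 replication-dependent histone genes listed 27 were in the table and 16 were tested, of which 9 were higher, 1 lower and 4 agreed, with a median log2 difference of 2.16. HIST1H4C, a histone H4 gene, gave log2 levels of 11.10, 10.94 and 10.13 against 7.84, 7.81 and 8.19 (2.78 ± 0.21 SE, adjusted p = 9.91e-10). HIST1H1C, the gene of linker histone H1.2, gave 9.26, 9.31 and 9.02 against 6.99, 7.26 and 6.93 (2.14 ± 0.13 SE, adjusted p = 9.01e-12). HIST2H2AA3 and HIST2H2AA4, near-identical copies whose reads cannot be told apart, differed by 2.86 and 2.33. The list median was 1.93, 2.27 and 1.30 in HEK28 replicates 1 to 3.

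Nucleotide synthesis, the proteasome and antioxidant defence were further groups in which the agreeing genes were all higher. Of 28 one-carbon and nucleotide synthesis genes 11 were higher and 8 agreed. APRT, the adenine salvage enzyme, gave log2 levels of 6.00, 6.11 and 5.55 against 2.49, 2.15 and 2.51 (3.51 ± 0.20 SE, adjusted p = 9.01e-12), so the groups lay about 3 log2 units apart. The purine synthesis genes PAICS, ADSL and GMPS were higher by 2.19, 1.88 and 1.56, and the nucleoside diphosphate kinase gene NME4 by 2.33. PAICS had 1 read in parental replicate 1 and levels of 4.30, 7.30 and 7.51 in the parental line. With replicate 3 alone 19 members were higher, and without replicate 3 10 were higher and 5 lower.

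Of 34 proteasome subunits 14 were higher, 1 lower and 12 agreed. PSMA4 and PSMB7 of the core particle differed by 1.56 and 1.73 (adjusted p = 6.76e-07 and 1.41e-06), with PSMA4 at 7.33, 6.98 and 7.07 against 5.39, 5.48 and 5.83. PSMC1, an ATPase of the cap, gave 10.61, 10.73 and 9.09 against 8.12, 8.01 and 8.34 (1.98, adjusted p = 1.76e-05), with replicate 3 nearest to the parental range. PSMD14, the deubiquitinase of the cap, and PSMD7 differed by 1.60 and 1.71. Replicate 3 alone had 21 higher subunits.

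Of 32 antioxidant and glutathione genes 14 were higher and 7 agreed. SOD1, the cytosolic superoxide dismutase, gave log2 levels of 7.18, 7.33 and 6.97 against 4.30, 4.20 and 4.47 (2.83 ± 0.15 SE, adjusted p = 4e-12), with the lowest HEK28 library more than 2 log2 units above the highest parental one. TXN, thioredoxin, TKT, transketolase, GPX1, a glutathione peroxidase, and GSTP1, a glutathione transferase, were higher by 1.64, 1.62, 1.44 and 1.38.

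Of 36 tested cytosolic and mitochondrial chaperones 13 were higher and 4 lower, with 8 and 2 agreeing. Without HEK28 replicate 3 the counts were 13 and 9. HSP90AA1 and HSP90AB1, the cytosolic HSP90 genes, were higher by 1.65 and 1.29 (adjusted p = 9.4e-11 and 1.65e-08), and HSPA4, a nucleotide exchange factor of HSP70, by 2.20 (adjusted p = 2.61e-08). HSPD1, the mitochondrial HSP60, gave log2 levels of 11.03, 10.96 and 11.33 against 9.81, 9.63 and 9.68 (1.40 ± 0.12 SE, adjusted p = 6.47e-09). HSPB1, the small heat shock protein HSP27, was lower, with 8.34, 8.91 and 9.75 against 11.19, 11.32 and 11.47 (-2.33 ± 0.24 SE, adjusted p = 1.06e-07). Stress-inducible HSPA1A, HSPA1B and DNAJB1 did not pass.

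In the same set of lists, those with at least 12 tested members, immediate early genes were most often lower. They encode short-lived transcripts that serum, growth factors and stress induce within minutes, through serum response factor at CArG boxes and through CREB and ATF proteins at TGACG elements, among others. Of 27 tested 17 were lower, with a median log2 difference of -2.32, and 6 agreed. The list median by library was -2.19, -2.27 and -1.17 in HEK28 replicates 1 to 3, and -0.17, 0.14 and 0.02 in the parental libraries. In the 24 knockout libraries it ran from -1.86 to -0.79, so no library of HEK28 origin reached the parental range. In replicate 3 alone 12 passed as lower.

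The promoters of the 3 agreeing immediate early genes with the largest differences are shown because they hold these elements. Each is the 250 bases upstream of a RefSeq start (GRCh38.p14), 5′ to 3′ on the gene's strand, with CArG boxes and TGACG, or its reverse complement CGTCA, in capitals.
EGR1, chr5:138465229-138465478, plus strand: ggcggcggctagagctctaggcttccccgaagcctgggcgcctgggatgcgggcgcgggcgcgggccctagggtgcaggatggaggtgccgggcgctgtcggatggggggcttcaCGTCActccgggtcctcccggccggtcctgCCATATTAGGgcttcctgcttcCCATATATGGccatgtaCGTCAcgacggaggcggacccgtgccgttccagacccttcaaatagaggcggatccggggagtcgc
IER2, chr19:13150161-13150410, plus strand: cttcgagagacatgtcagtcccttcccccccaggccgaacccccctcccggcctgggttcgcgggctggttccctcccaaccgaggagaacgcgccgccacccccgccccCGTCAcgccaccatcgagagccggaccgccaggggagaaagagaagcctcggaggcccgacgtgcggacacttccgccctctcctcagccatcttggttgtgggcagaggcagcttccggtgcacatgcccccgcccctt
ZFP36L1, chr14:68793417-68793666, minus strand: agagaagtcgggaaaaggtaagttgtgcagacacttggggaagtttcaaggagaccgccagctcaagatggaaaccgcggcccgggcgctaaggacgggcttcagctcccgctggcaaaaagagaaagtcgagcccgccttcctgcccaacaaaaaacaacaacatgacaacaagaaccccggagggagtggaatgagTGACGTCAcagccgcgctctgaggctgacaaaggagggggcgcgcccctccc
The EGR1 promoter holds 2 CArG boxes and 2 TGACG elements, that of IER2 1 TGACG element, and that of ZFP36L1 the full palindrome TGACGTCA, which contains TGACG on both strands. ZFP36L1 has another RefSeq start, whose window holds 1 TGACG element. Over 35116 promoter windows of this length 1.16% hold a CArG box, 1.65% TGACGTCA and 21.2% TGACG on either strand. Of the 27 tested immediate early genes 19 were matched to the promoter table, and 2, 3 and 14 of them hold these motifs in at least 1 window, against 1.44%, 2.03% and 24.9% of 27305 genes counted in the same way. Of these holders 2, 1 and 7 were lower, and 0, 2 and 7 did not pass. A match is a string of letters and not a measured binding site.

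EGR1, a zinc finger transcription factor, gave log2 levels of 0.64, 2.04 and 1.14 in HEK28 against 4.89, 5.17 and 5.12 (-3.79 ± 0.31 SE, adjusted p = 4.63e-09), from 2, 16 and 6 HEK28 and 55, 132 and 227 parental reads. IER2 gave 5.45, 6.10 and 6.55 against 9.23, 9.22 and 9.18 (-3.18 ± 0.25 SE, adjusted p = 1.72e-09). ZFP36L1, which directs the decay of AU-rich transcripts, gave 1.86, 1.81 and 3.03 against 5.40, 5.72 and 5.06 (-3.16 ± 0.35 SE, adjusted p = 2.69e-07). The parental libraries of IER2 lay within 0.1 log2 units of each other, and every HEK28 library was more than 2 log2 units below them. IER3 gave 3.20, 3.96 and 2.32 against 5.47, 5.50 and 6.14 (-2.54, adjusted p = 4.31e-06), and ATF3, described above, and BTG1 (-0.59) completed the agreeing genes. The knockout medians of EGR1, IER2 and ZFP36L1 were 1.48, 7.07 and 3.34, between the 2 lines or near HEK28. JUN, MYC and BTG2 did not pass.

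In 3 further lists of inducible genes the calls were mostly lower, and few of them agreed. Of 12 tested NF-kB targets 6 were lower and 1 agreed, IER3, which is also an immediate early gene. Of 22 hypoxia genes 10 were lower and 3 higher, and 0 agreed. Of 14 interferon response genes 8 were lower and 1 agreed. All 3 lists lay nearest to the parental line in replicate 3. The list medians in HEK28 replicates 1 to 3 were -0.91, -1.42 and -0.30 for NF-kB and -1.02, -0.78 and -0.46 for hypoxia. For the interferon response they were -0.77, -1.99 and -0.65. The parental libraries held -0.15 to 0.16, -0.18 to 0.09 and -0.05 to 0.02.

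Genes that control the release of paused RNA polymerase were lower more often than higher, 7 (35%) and 2 (10%) of 20 tested. The shares over all tested genes were 15.1% and 16.7%. HEXIM1, which holds the elongation kinase P-TEFb inactive, gave log2 levels of 6.68, 8.07 and 8.33 against 12.03, 12.16 and 12.35 (-4.48 ± 0.31 SE, adjusted p = 2.84e-10). Reads fell from 119, 255 and 518 in the parental libraries to 2, 16 and 14, and the knockout libraries held levels of 7.17 to 9.10. CCNT1, the cyclin of P-TEFb, NELFCD, a subunit of the pausing factor NELF, and AFF4, a scaffold of the super elongation complex, were lower by -0.90, -1.54 and -0.91 (adjusted p = 0.0142, 5.97e-05 and 0.0069). BRD3, a bromodomain protein, was higher by 1.37 (adjusted p = 8.57e-08).

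p53 targets went both ways, 7 of 26 higher (26.9%) and 8 lower (30.8%), against 16.7% and 15.1% of all tested genes. CDKN1A, the cell cycle inhibitor p21, was lower at levels of 3.11, 2.81 and 2.52 against 3.68, 4.21 and 4.59 (-1.35, adjusted p = 0.00084), and ZMAT3 and SESN2 were lower by -0.88 and -0.74. SESN1, DDB2 and RPS27L were higher by 1.90, 1.49 and 2.27. Of 24 cholesterol synthesis genes 4 were higher (16.7%) and 2 lower (8.33%), against 16.7% and 15.1% of all tested genes. SQLE, squalene epoxidase, agreed at 1.26 (adjusted p = 8.67e-05).

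In 7 of these lists (ATP synthase, nucleotide synthesis, antioxidant, autophagy, immediate early, NF-kB and interferon) limma called 0 members in the direction not given. At an unadjusted p under 0.05 that direction held 2 nucleotide synthesis genes, 2 antioxidant genes, 1 autophagy gene, 1 NF-kB target and 0 genes of the other lists. With voom weights it held 1 nucleotide synthesis gene, 1 antioxidant gene and 0 of the others. Without HEK28 replicate 3 it held 4 ATP synthase, 5 nucleotide synthesis, 3 antioxidant and 6 autophagy genes, 1 NF-kB target and 0 immediate early and interferon genes. Leaving out that replicate raised the number lower over all genes from 1715 to 2357. In the lists it went from 5 to 8 for the chaperones of the endoplasmic reticulum, from 8 to 14 for the translocon list, from 3 to 5 for the tricarboxylic acid cycle, from 6 to 10 for translation factors, from 3 to 6 for G2 phase and mitosis, from 1 to 5 for the proteasome and from 2 to 6 for cholesterol synthesis.

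**Figure D1:**
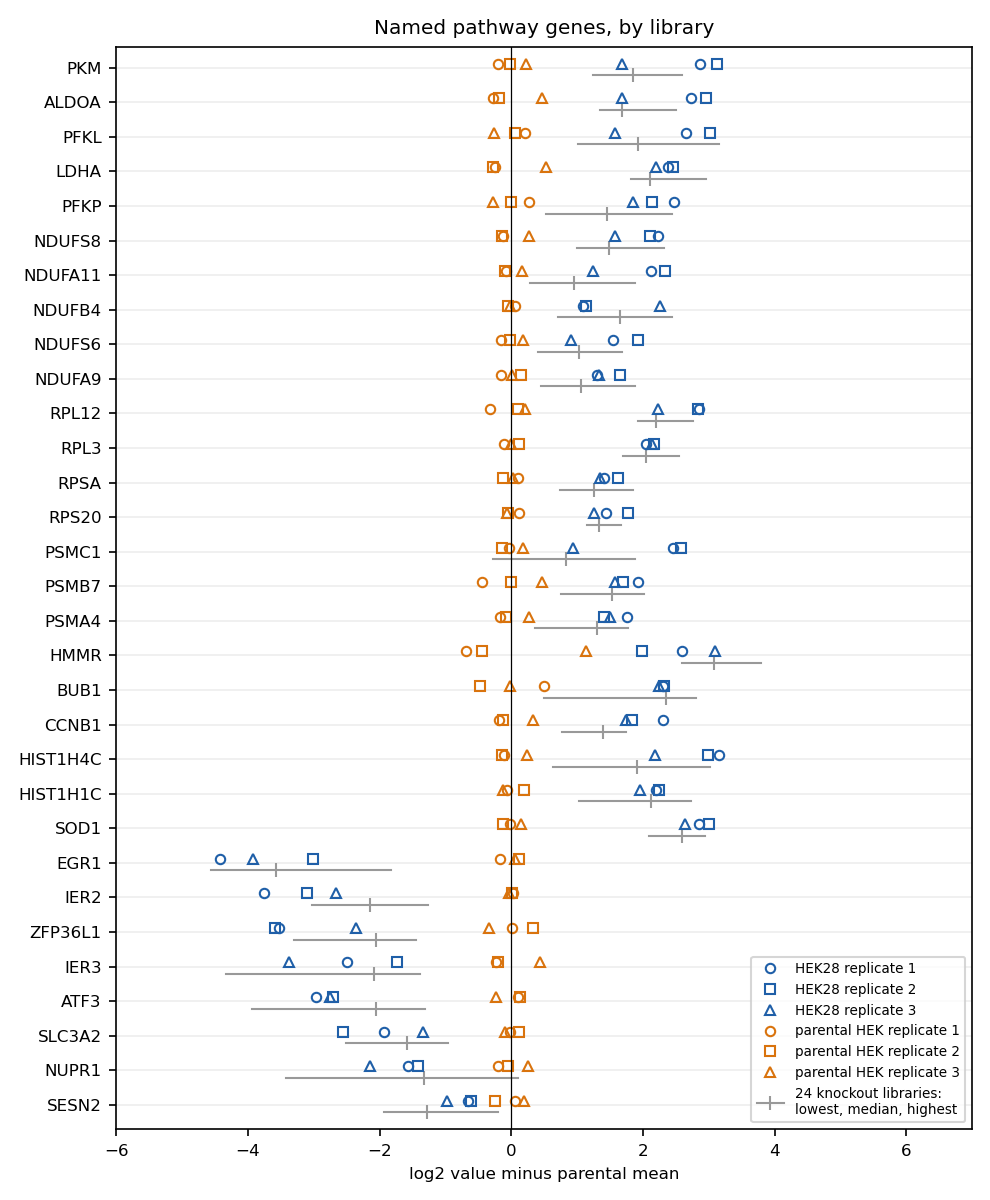
Log2 values of named pathway genes minus the parental mean (x axis), 1 row a gene, with a blue symbol for each HEK28 library, an orange symbol for each parental library and a grey line and tick for the range and median of the 24 knockout libraries. Glycolytic, respiratory, ribosomal, proteasome, mitotic and histone genes and SOD1 lie to the right of the parental libraries. Immediate early and ATF4 genes lie to the left. The blue symbols of a gene do not reach the orange ones, as the agreement rule requires.

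Beyond the lists, the largest differences among agreeing genes were read gene by gene. RP3-467D16.3, an antisense RNA gene of chromosome 6 (16259101 to 16264553), had 29, 49 and 48 reads in HEK28 and 0, 0 and 4 in the parental line (log2 difference 5.73, adjusted p = 6.33e-07). Its level in the knockout libraries ran from -4.55 to 5.28 with a median of -0.38, so most of them did not share the HEK28 level, and HEK28 was above the mean of the knockout groups by 3.42 (adjusted p = 0.000119). MARVELD1, which encodes a MARVEL domain membrane protein, had 0, 0 and 6 parental reads and 19, 56 and 13 in HEK28 (4.80, adjusted p = 2.1e-07). AKR7A2, an aldo-keto reductase, gave log2 levels of 6.12, 5.71 and 6.27 against 2.84, 0.28 and 2.62 (4.12, adjusted p = 8.11e-08). CHMP3, of the ESCRT-III membrane scission complex, gave 7.69, 7.46 and 6.42 against 4.37, 3.03 and 2.85 (3.77, adjusted p = 6.49e-09).

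C21orf33, a mitochondrial protein gene of chromosome 21 with a near-identical copy, differed by 4.21 (adjusted p = 4.31e-07), and this value is uncertain for that reason. NIPSNAP1, of the mitochondrial matrix, gave log2 levels of 4.71, 5.24 and 5.12 against 1.03, 1.28 and 2.28 (3.50, adjusted p = 5.62e-09), and MRPS25, of the mitochondrial ribosome, differed by 3.41. TUBA1C, an alpha-tubulin with close paralogs, differed by 3.61, with 0, 12 and 17 parental reads. NCDN, neurochondrin, gave 7.00, 7.30 and 6.27 against 3.35, 3.97 and 3.39 (3.28, adjusted p = 4.72e-08). CCDC71 and PALD1 differed by 3.81 and 3.36, both with fewer than 10 reads in each parental library.

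Among the agreeing genes lower in HEK28, 2 had no read in any HEK28 library. KRTAP19-1, which encodes a hair keratin-associated protein, had 11, 53 and 58 parental reads and was at least 32.2-fold lower in HEK28, against a floor of 3 reads over the group. C10orf10, also named DEPP1, a FOXO-responsive gene, had 19, 16 and 48 and was at least 21.9-fold lower. Their fitted log2 differences of -5.63 and -5.23 depend on the offset in the values. RP3-395M20.12, a lincRNA gene of chromosome 1 (2530064 to 2547460) that overlaps HES5 on the other strand, gave log2 levels of 1.11, 3.04 and 2.06 against 7.45, 7.61 and 7.94 (-5.60 ± 0.41 SE, adjusted p = 6.28e-10). The labels do not state whether the counting used strand.

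ZNF503, a zinc finger repressor of development, was the best measured of these genes. Its log2 levels were 5.25, 5.01 and 6.03 in HEK28, from 28, 60 and 90 reads, against 10.13, 10.30 and 10.41 from 982, 2175 and 4155 parental reads (-4.85 ± 0.22 SE, adjusted p = 1.25e-13). All 24 knockout libraries lay between, at 6.16 to 7.00, and HEK28 was below their mean by -1.22 (adjusted p = 7.91e-05). MXRA8, an adhesion protein and alphavirus receptor, gave 4.82, 5.37 and 5.16 against 8.43, 8.78 and 8.97 (-3.61, adjusted p = 2.34e-06), and the knockout libraries ran from 2.57 to 9.29. TNFRSF9, a costimulatory receptor of the TNF receptor family, gave 0.55, -0.03 and -0.33 against 3.14, 3.13 and 3.91 (-3.33, adjusted p = 6.13e-05), from 1 to 2 HEK28 reads a library. RP11-809N8.5, a processed pseudogene inside FAM168A, differed by -3.44, and reads of its parent gene cannot be told apart from its own.

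**Figure D2:**
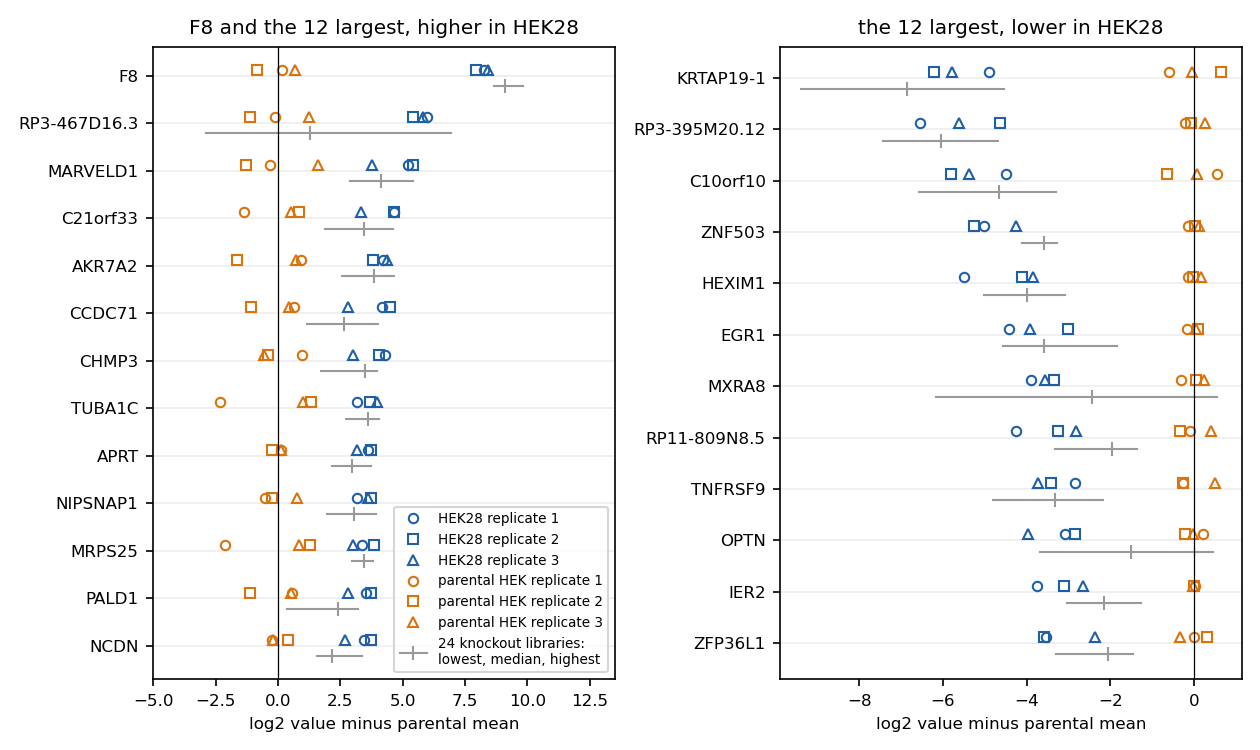
Log2 values minus the parental mean (x axis) of F8 and the 12 agreeing genes with the largest increase (left) and the 12 with the largest decrease (right), with a blue symbol for each HEK28 library, an orange symbol for each parental library and a grey line and tick for the range and median of the 24 knockout libraries. Blue and orange symbols are separate in every row, as the agreement rule requires. The knockout range of RP3-467D16.3 spans both groups, and those of PALD1, MXRA8 and OPTN reach the parental symbols.

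Neurofilament and vimentin transcripts were read in both lines, and some defining kidney markers had too few reads to be tested. Of 32 listed nephric and neural markers 25 were in the table. Their summed share was 1102 to 1282 CPM in HEK28 and 1162 to 1397 CPM in the parental line. These sums leave out NEFM and NEFL, whose reads were not recovered, so they do not compare the whole list. Of 20 tested 4 were higher and 5 lower, with 3 and 1 agreeing and a median log2 difference of -0.55. NEFM and NEFL, neurofilament genes, were higher in HEK28 by 0.98 and 1.82 (adjusted p = 3.29e-07 and 1.66e-11), with NEFL at log2 levels of 11.92, 12.05 and 11.58 against 9.98, 9.95 and 10.15. VIM, vimentin, was higher by 1.45 (adjusted p = 7.76e-07), and KRT18, a simple epithelial keratin, lower by -1.38 (adjusted p = 0.00488). LHX1, SALL1 and GATA3, kidney transcription factors, did not pass, and 3 other kidney regulators of the list were lower without agreeing. The markers with too few reads include PAX2 and WT1, and PAX8 is not in the table.

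Each list of markers of other cell types held fewer reads than the HEK293 list. Without NEFM and NEFL, that list had 1042 in HEK28 and 1473 in the parental line. The endothelial list, which matters because endothelial cells are a natural source of factor VIII, had 57 HEK28 and 63 parental reads in all, and VWF and CDH5 are not in the table. The hepatocyte list had 9 and 28 reads, the fibroblast list 17 and 61, and the blood cell list 62 and 66, with a wide range of 9.69 to 219 CPM in HEK28 and 16.4 to 127 CPM in the parental line. The keratinocyte and gut epithelial list had 45 HEK28 and 273 parental reads, 13.3 to 102 against 190 to 276 CPM, and both of its tested members were lower without agreement. Of 33 tested matrix and integrin genes 6 were higher (18.2%) and 10 lower (30.3%), against 16.7% and 15.1% of all tested genes. COL4A2, of basement membrane collagen, was higher by 1.34 (adjusted p = 0.000163) and NID1, nidogen, lower by -2.45 (adjusted p = 2.11e-06), and both agreed. Of 32 tested actin and tubulin cytoskeleton genes 11 were higher (34.4%) and 6 lower (18.8%). Without replicate 3 the counts were 12 and 10. The agreeing TUBB, TPM3, TPM4 and ARPC2 were higher by 1.72, 1.52, 1.77 and 1.38, and none of the lower members agreed.

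HEK293 sublines differ in chromosome number, so the median difference of each chromosome's genes was read by library. HEK28 and knockout libraries were taken from the parental mean, and each parental library from the mean of the other parental libraries. Chromosome 7 had the lowest median log2 difference, -0.38 over 516 tested genes, with 55 higher and 136 lower. Its medians were -0.40, -0.41 and -0.25 in HEK28 replicates 1 to 3, outside the -0.05 to 0.12 of the parental libraries, and -0.40 to -0.09 in the knockout libraries. In 6 consecutive blocks of 86 genes along the chromosome the median ran from -0.54 to -0.22, so no single stretch carried it. Chromosome 21 had the highest median, 0.43 over 142 genes, with 46 higher and 17 lower. Its medians were 0.40, 0.50 and 0.47 in the HEK28 libraries, -0.04 to 0.10 in the parental ones and 0.06 to 0.71 in the knockout libraries, and both 71-gene blocks were positive, at 0.39 and 0.46. Chromosomes 7 and 21 were not alone in lying outside the parental range. All 3 HEK28 libraries were below it on chromosome 12 (-0.21, -0.18 and -0.12, against -0.09 to 0.12). They were above it on chromosomes 15 (0.15, 0.07 and 0.29, against -0.08 to 0.05) and 20 (0.10, 0.30 and 0.33, against -0.04 to 0.08). Of the genes described, SOD1, C21orf33, PFKL, UBE2G2 and KRTAP19-1 lie on chromosome 21. DNA copy number was not measured.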

How the data were processed

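RNA of 3 HEK28, 3 parental HEK and 24 knockout samples was column-purified and read by 3' RNA-seq (Illumina HiSeq), per the labels' protocols. Bowtie, TopHat2, cutadapt and FastQC and the build hg38 are named in the submitters' processing notes. How reads were counted and scaled, and with which annotation and strand setting, is not given in the sources used here. The table deposited by the authors holds log2 values of 16975 genes in 30 samples, with no description of how they were scaled. From the steps of the values, reads plus an offset of 0.5, divided by a gene length and a library size, were recovered within 0.2 reads for 16903 genes and not for 72. The smallest gene total is 18 reads and 0 mitochondrially encoded genes are listed, so genes below some minimum are not in the table. Positions and gene types come from GENCODE 29 (GRCh38), which held 16938 of the gene IDs and not 37, and 21 symbols had been turned into dates. Promoter sequences come from RefSeq (GRCh38.p14).

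Genes were tested if at least 3 libraries reached 16.3 CPM, worth 10 reads at the median depth of 613169 reads, and if their total was at least 15 reads; 11341 met this. The deposited log2 values of all 30 samples entered 1 limma model (limma 3.58.1, R 4.3.3) with a coefficient for each of the 10 groups, empirical Bayes moderation with a trend and robust option, two-sided p-values and Benjamini-Hochberg adjustment over all tested genes at 0.05. Mean ± SE in the text refers to this model. No count test was used, since the table holds normalised values. The pipeline was checked on simulated data. Alternatives were no filter or a filter of 30 reads, quantile normalisation, a prior of 2 reads, voom weights, the 6 samples alone, the replicate number as a block, no trend, each library left out, and HEK28 replicate 3 alone. List medians are beside that of all genes, with no set test. Counting intervals and floors cover counting error only.

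F8 is always named. From the genes that agree, the 12 largest differences in each direction and up to 5 members of each list are named, without date-like or duplicated symbols, XIST or Y-linked genes. Any other gene named was chosen after its values were seen. The comparison, its members and the 39 gene lists were chosen with earlier results of these data known. Replicate numbers did not pair the samples: the correlation of the deviations of same-numbered HEK28 and parental libraries was 0.014, -0.096 and -0.124. Some genes of these lists are counted but not reported here by name.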

Additional observations from a re-analysis of the deposited data

How the results depend on the processing

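F8 passed under all 15 alternatives run. The number of genes higher in HEK28 was 1892 and fell to 934 with voom weights and to 318 with the 6 samples alone. The number lower was 1715, and was 976 without HEK28 replicates 1 and 2 and 232 with the 6 samples alone. With 1 library left out at a time the higher count ran from 1635 to 2057 and the lower count from 1314 to 2357. With the replicate number as a replicate block 1881 genes were higher and 1680 lower, against 1892 and 1715. Of the 131 named genes 85 kept their call under every alternative run on them and none reversed. The other 46 lost it with 6 samples alone, and 4 of these, ERO1B, MLEC, OGDH and CCNT1, also lost it under at least 1 other alternative. The naming rule fixed part of this, since it required a call with HEK28 replicate 3 alone and groups that did not overlap. A call could thus not be lost with replicate 3 alone, nor reversed with 1 library left out. The voom weights and the prior of 2 reads could not be run on 6 named genes whose reads were not recovered (HSP90AA1, NEFL, NEFM, NPM1, RPL27A and TUBB), and the stricter filter left out C10orf10 and OGDH. The median log2 difference of all genes moved from -0.07 to -0.24 with voom weights, -0.14 with a prior of 2 reads and 0.11 with replicate 3 alone. Depth limits the low genes: parental and HEK28 libraries held 0 reads for 1408 to 5068 of the listed genes.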

Other observations

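Values of HEK28 beside the knockout libraries are given here for 3 genes chosen after their values were seen. These comparisons share the HEK28 or the parental libraries. PSPH, of serine synthesis, had log2 levels of 6.09, 5.86 and 5.77 in HEK28, above the 4.13 to 5.45 of the knockout libraries, and differed from the knockout mean by 1.06 (limma adjusted p = 0.00161). The knockout mean differed from the parental line by 0.29 in that gene (adjusted p = 0.313). Its levels rest on few reads, 10, 22 and 15 in HEK28. AFF4, of the super elongation complex, had levels of 2.29, 3.15 and 2.46 in HEK28 and 3.01 to 3.93 in the knockout libraries, so that replicate 2 overlapped them, and differed from the knockout mean by -0.87 (adjusted p = 0.00195). OPTN differed from the knockout mean by -1.94 (adjusted p = 5.82e-05), with 4.85 to 5.99 in HEK28 inside or near the wide knockout range of 5.14 to 9.28, and rests on 1, 4 and 1 reads in HEK28.

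For 3 lists, also chosen after their values were seen, HEK28 replicates 1 and 2 lay outside the knockout libraries and replicate 3 among them. Each value is the list's median log2 difference from the parental mean. The large ribosomal subunit gave -0.10, -0.06 and 0.79 in replicates 1 to 3 and 0.45 to 1.05 in the knockout libraries. One-carbon and nucleotide synthesis gave 0.21, 0.22 and 1.15, against 0.61 to 1.16. Immediate early genes gave -2.19, -2.27 and -1.17, against -1.86 to -0.79. The pattern was not particular to these lists. The small ribosomal subunit (0.19, 0.29 and 0.89, against 0.53 to 1.02) and the proteasome (0.36, 0.41 and 0.95, against 0.47 to 0.99) also showed it. So did complexes III and IV, ATP synthase, the tricarboxylic acid cycle, and the translocon, antioxidant and cytoskeleton lists. The hypoxia genes, the NF-kB targets and the keratinocyte and gut epithelial list showed it as well. It was thus spread over lists of unlike function. Other lists, such as glycolysis, did not.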
